A study of Mus musculus with 24 samples.

Results

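Mice given CI-994, which blocks the class I histone deacetylases (HDACs), and then trained with foot shocks were compared with mice that had neither, at every H3K27ac peak of the dataset. The comparison used 6 of the 24 libraries of the series, and 6 of its 12 H3K27ac libraries: the HDACi-CFC libraries 1 to 3 and the Veh-Context libraries 1 to 3, chosen by their column names. All animals were male C57BL/6J mice aged 12 weeks. HDACi-CFC mice were injected with CI-994 at 30 mg/kg in a mix of dimethyl sulfoxide, Kolliphor and saline, and 1 h later went through contextual fear conditioning (CFC), which was 3 min of habituation to a chamber and 2 foot shocks of 1 s at 0.2 mA. Veh-Context mice were injected with the same mix without the drug and spent an equal time in the chamber with no shock. Tissue was taken 1 h after the session. About 750000 nuclei per sample were stained for NeuN, a nuclear protein of neurons, the NeuN+ ones were sorted, and the labels name the dentate gyrus as their source and the hippocampus in the titles. The groups differ in both drug and shock. The 2 other groups of the series, shocked mice on vehicle (Veh-CFC) and unshocked mice on the drug (HDACi-Context), were used to set each single treatment beside the joint change. Mice were randomized to drug one by one but to conditioning by cage, and an effect of the shock cannot be told apart from one of the cage. The labels do not say whether replicates are single mice or pools, so p-values measure the spread between libraries.

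H3K27ac, acetylation of lysine 27 on histone H3, is placed by acetyltransferases such as p300 and CBP and removed by HDACs, and it marks active promoters and enhancers. In hippocampal neurons, activity switches on immediate early genes such as Fos and Egr1 within minutes, and many of the products are transcription factors that act on later genes. The dentate gyrus is the entry station of the hippocampus, and its granule neurons take part in forming memories of a context.

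The promoter regions below show the kinds of peak that the comparison separated. Those of Stx16 and Fos overlapped peaks that gained the mark, and those of Lonp2, Nup214 and Coq7 narrow peaks that lost it. Each line gives the 250 bases before the RefSeq start of the gene (assembly GRCm38.p6, the sequence that mm10 names), read 5′ to 3′ on the strand of the gene. Capitals mark matches to any of 4 motifs on either strand, which may overlap. One is the GC box, GGGCGG. Another is the CCAAT box. A further one is the half-site of the cAMP response element, spelled TGACG. The last is an ETS motif, spelled CCGGAAG. The windows are chr2:174076052-174076301 (Stx16, plus strand), chr12:85473640-85473889 (Fos, plus), chr8:86623793-86624042 (Lonp2, plus), chr2:31974200-31974449 (Nup214, plus) and chr7:118533357-118533606 (Coq7, minus).
Stx16: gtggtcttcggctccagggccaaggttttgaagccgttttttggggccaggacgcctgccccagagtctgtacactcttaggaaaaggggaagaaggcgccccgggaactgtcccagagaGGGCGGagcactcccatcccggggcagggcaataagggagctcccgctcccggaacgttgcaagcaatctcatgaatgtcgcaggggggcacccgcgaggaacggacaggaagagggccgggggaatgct
Fos: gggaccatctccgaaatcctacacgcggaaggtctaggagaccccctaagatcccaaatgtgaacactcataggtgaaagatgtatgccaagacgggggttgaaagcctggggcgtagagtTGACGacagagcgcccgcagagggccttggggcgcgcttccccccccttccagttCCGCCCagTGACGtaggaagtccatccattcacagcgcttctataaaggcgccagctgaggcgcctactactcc
Lonp2: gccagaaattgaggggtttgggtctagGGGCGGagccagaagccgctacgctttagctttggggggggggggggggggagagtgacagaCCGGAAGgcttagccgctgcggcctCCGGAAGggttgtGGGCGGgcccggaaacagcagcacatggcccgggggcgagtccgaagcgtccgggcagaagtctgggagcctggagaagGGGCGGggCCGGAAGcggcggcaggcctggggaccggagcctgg
Nup214: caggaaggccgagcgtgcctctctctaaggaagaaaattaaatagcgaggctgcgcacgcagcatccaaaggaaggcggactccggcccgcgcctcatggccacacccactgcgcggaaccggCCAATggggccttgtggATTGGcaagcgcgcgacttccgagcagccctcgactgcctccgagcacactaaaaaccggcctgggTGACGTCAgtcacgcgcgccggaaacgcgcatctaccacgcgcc
Coq7: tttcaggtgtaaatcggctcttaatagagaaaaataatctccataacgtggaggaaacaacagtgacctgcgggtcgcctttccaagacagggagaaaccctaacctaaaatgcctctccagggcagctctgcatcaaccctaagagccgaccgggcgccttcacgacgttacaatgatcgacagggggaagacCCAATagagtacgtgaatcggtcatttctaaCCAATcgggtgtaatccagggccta
Lonp2 held 3 ETS motifs and 3 GC boxes in this window. Nup214 held 2 CCAAT boxes and 2 half-sites. Coq7 held 2 CCAAT boxes, while Fos held 2 half-sites and 1 GC box and Stx16 a single GC box. The peaks cover all 250 bases of the Stx16 window, 185 of Fos, 211 of Coq7, 81 of Nup214 and 58 of Lonp2. The ETS motifs of Lonp2, all but its first GC box, and the marked letters of Nup214 lie past the end of the peak, on the side of the gene. So do the last CCAAT box of Coq7 and, save for its first base, the last half-site of Fos. A match is a run of letters and was not tested for binding.

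The total count in all deposited peaks was 13260955, 6639158 and 13711438 in Veh-Context libraries 1 to 3, and 14132205, 10153795 and 12434400 in HDACi-CFC libraries 1 to 3. Levels are given as CPM, counts scaled to an adjusted library total of 1000000, and changes as log2 of HDACi-CFC over Veh-Context with the standard error (SE) of the fit. There was no spike-in, so a rise or drop is relative to the other peaks of the library. A peak was called where edgeR's quasi-likelihood test gave a Benjamini-Hochberg adjusted p under 0.05 over all 144014 peaks tested.

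Of those peaks, 13707 rose and 12414 fell, which is 18.1% of all peaks in either direction (9.52% higher and 8.62% lower). The median change among the called peaks was 0.81 for rises and -0.72 for drops. More than 2-fold changes were seen at 4715 of the rises and 2082 of the drops. The 3 libraries of HDACi-CFC all lay above the 3 of Veh-Context at 17.9% of peaks and all below at 17.8%. With scaling by library totals in place of trimmed means of log ratios (TMM), 11026 rose and 16701 fell, so the share of rises among calls was 39.8% in place of 52.5%. The counts also moved with single libraries: without Veh-Context replicate 1 they were 6889 and 6337. Without Veh-Context replicate 3 the drops numbered 8208, without HDACi-CFC replicate 1 7351, and without HDACi-CFC replicate 3 they were 9105 rises and 7572 drops.

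Rises gathered near genes. Drops were most frequent far from genes and least frequent at 1001 to 10000 bp from the TSS, with a higher share again at the TSS itself. Of the peaks that spanned a transcription start site (TSS), 22.1% rose and 9.77% fell. Of those whose edge lay 1001 to 10000 bp from the TSS, 14.0% rose and 3.34% fell. The order was reversed beyond 50000 bp, where 3.50% rose and 11.8% fell up to 200000 bp. Beyond 200000 bp 72 peaks rose and 2711 of 11098 fell, with a median change of -0.38. By the annotation deposited with the peaks, 14.7% of intergenic peaks fell and 4.88% rose, against 5.52% and 10.5% of intronic ones. Of peaks annotated promoter-TSS 13.4% fell and 10.1% rose. Exonic peaks rose in 656 cases and fell in 80, and peaks at transcription termination sites in 619 and 67.

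**Figure D1:**
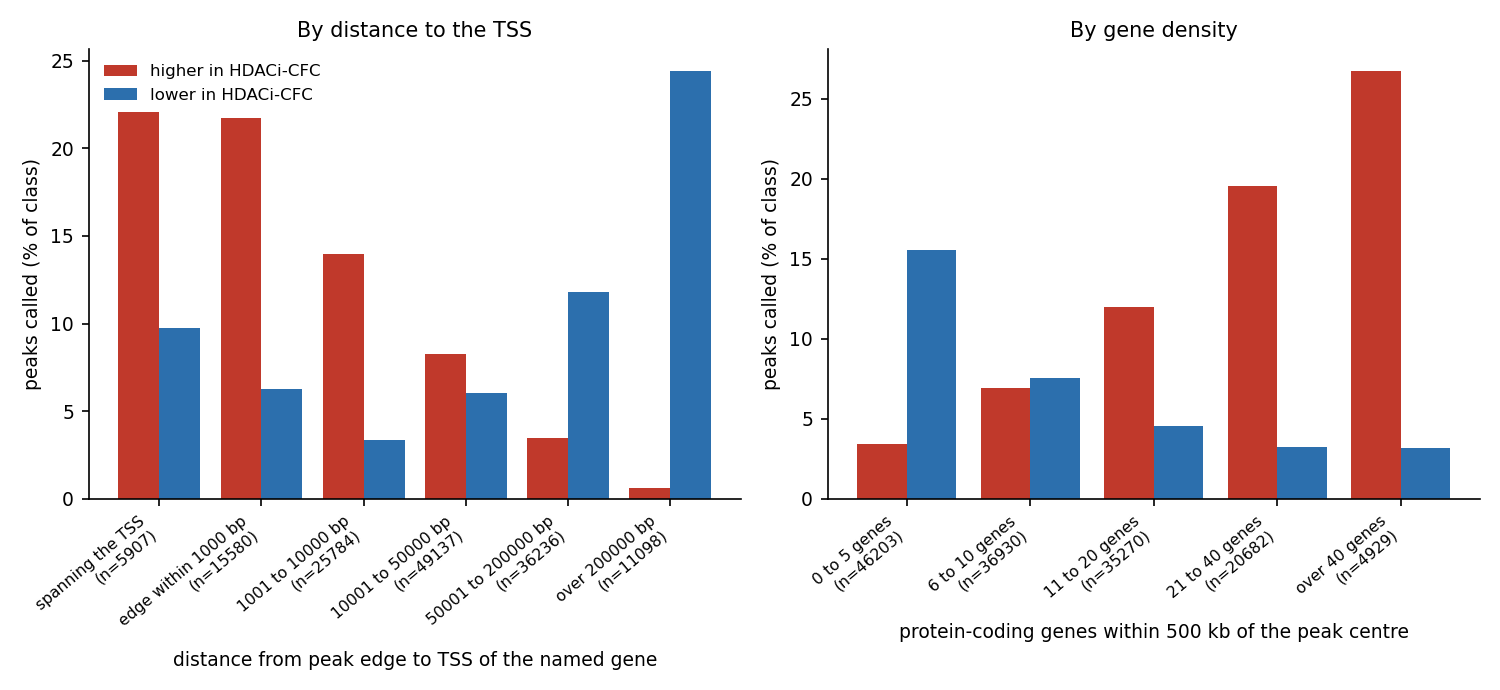
Percent of peaks called higher (red) or lower (blue) in HDACi-CFC than in Veh-Context, by distance from the peak edge to the TSS (left) and by the count of coding genes in the surrounding 500 kb on each side (right), with the number of peaks of each class under the bars. Rises fall from 22.1% at the TSS to 0.649% beyond 200000 bp, and climb from 3.43% to 26.7% with gene density.

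Promoter peaks, those with an edge within 1000 bp of the named TSS, rose in 4691 cases and fell in 1555 of 21487 (21.8% and 7.24%), with a median change of 0.18. The other 122527 peaks rose in 9016 cases and fell in 10859 (7.36% and 8.86%), with a median of -0.05. That balance depended on what was counted as a promoter. Among the 8194 peaks that the deposited annotation calls promoter-TSS, 827 rose and 1094 fell, and the median was -0.03. With the limit set at 100 bp, 1615 rose and 959 fell.

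Peak width divided the promoters. Of promoter peaks wider than 10000 bp, 64.3% rose and 1.44% fell, with a median change of 0.45. Those of 501 to 1000 bp rose in 9.32% and fell in 10.4%, with a median of 0.03. Away from promoters rises followed the same order, with 39.8% of peaks over 10000 bp against 3.82% of those of 501 to 1000 bp. Drops there did not: they made up 4.88% at 501 to 1000 bp, 14.6% at 2001 to 5000 bp and 6.90% over 10000 bp. Wide peaks also hold more counts, and the part of depth in this order was not tested. The median width was 2329 bp for called rises, 1633.5 bp for called drops and 1189 bp for all peaks.

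**Figure D2:**
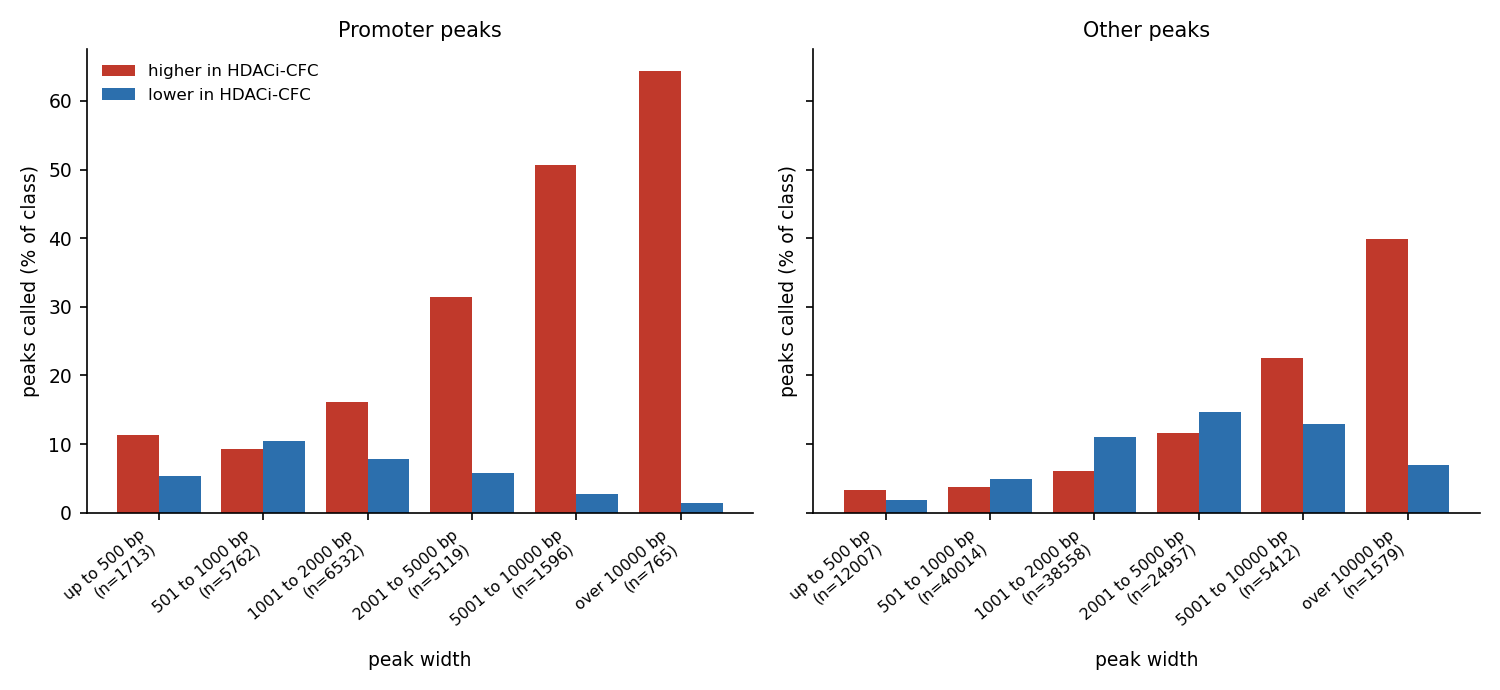
Percent of peaks called higher (red) or lower (blue) in HDACi-CFC than in Veh-Context by peak width, for promoter peaks (left) and other peaks (right), with the number of peaks of each class under the bars. At promoters rises climb to 64.3% in the widest class, while drops are most frequent, at 10.4%, among peaks of 501 to 1000 bp.

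By the chromatin state deposited with each peak, active enhancers rose at 6211 and fell at 3514 of 41914 peaks, and strong promoters at 2664 and 1460 of 15611. Primed enhancers rose at 2555 and fell at 1854 of 33866. Peaks of the state named control leaned the other way, with 1815 rises and 5258 drops among 46429.

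Calls also varied with gene density. Where at most 5 protein-coding genes lay within 500 kb, 3.43% of peaks rose and 15.6% fell, with a median change of -0.23. Where more than 40 genes did, 26.7% rose and 3.21% fell, with a median of 0.41. Both single treatments moved along this axis, in opposite directions. The shock alone (Veh-CFC against Veh-Context) had medians of -0.21 in the sparsest and 0.46 in the densest class, and the drug alone (HDACi-Context against Veh-Context) 0.12 and -0.42. All 3 comparisons share the Veh-Context libraries, so they are not independent of each other. By chromosome, 14.0% of peaks rose and 5.59% fell on chromosome 11, while 5.26% rose and 14.4% fell on chromosome 3. On the X chromosome 5.91% rose and 12.7% fell.

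The same redistribution was seen in the raw shares of each library, which do not depend on scaling. Promoter peaks held 21.7%, 21.4% and 22.5% of the counts in the Veh-Context libraries and 25.3%, 25.2% and 25.4% in the HDACi-CFC libraries. The groups did not overlap, with means of 21.9% ± 0.552 and 25.3% ± 0.104 (SD, n = 3 each). The exact permutation test was two-sided and gave p = 0.1, the smallest that 3 against 3 libraries allow, and the value adjusted over 7 such shares was 0.1. Veh-CFC held 25.8% ± 0.917 and HDACi-Context 19.0% ± 0.659 (SD, n = 3 each). Intergenic peaks held 23.6% ± 0.206 of the counts in HDACi-CFC and 27.3% ± 0.193 in Veh-Context (SD, n = 3 each). Peaks over 10000 bp wide held 21.5% ± 0.488 and 18.4% ± 0.595. For peaks annotated promoter-TSS the difference of the mean share was -0.21 percentage points, against 3.39 for all promoter peaks.

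A peak at chr2:98666115-98667446, in a stretch known to collect reads from satellite repeats, varied with the libraries as well. It held 38.1, 73.0 and 25.6 CPM in Veh-Context and 67.3, 135 and 93.5 CPM in HDACi-CFC, and the groups overlapped. The change was 1.15 ± 0.46 and was not called (edgeR adjusted p = 0.128). In Veh-CFC the mean was 174 and in HDACi-Context 13.4 CPM. The part of such reads in the redistribution was not tested.

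The 8 named promoter rises lay in peaks of 1993 to 12994 bp, most of them annotated to an intron. Stx16 encodes a syntaxin of the trans-Golgi network, and its promoter peak held 2.09, 2.50 and 2.35 CPM in Veh-Context and 9.42, 9.26 and 10.4 CPM in HDACi-CFC. The change was 2.08 ± 0.25 (4.23-fold, edgeR adjusted p = 5.4e-07). Mxi1, an antagonist of Myc, went from 2.09, 2.36 and 3.75 to 13.8, 12.1 and 11.6 CPM (2.16 ± 0.30). Sema6b, a transmembrane semaphorin of axon guidance, went from 1.64, 2.36 and 2.28 to 10.3, 6.03 and 9.16 CPM (2.06 ± 0.28). At all named peaks of this kind the groups do not overlap because the naming rule required it, so the gap is no further support. Gse1, Ptprs, a receptor phosphatase of the synapse, and Nfic, a nuclear factor I, rose by 2.26 ± 0.37, 2.04 ± 0.36 and 2.05 ± 0.39. Those 6 calls held in each of 19 alternative settings (7 changes of scaling, test, filter or design and 12 single libraries left out). The rises of Gp1bb (2.09 ± 0.46) and Traf4 (2.09 ± 0.49) were lost without Veh-Context replicate 1 and without 1 or 3 other libraries.

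Outside the promoter window of 1000 bp, among peaks with a mean count of at least 50, the peak at Midn rose most (2.63 ± 0.60). Midn is named for a regulator of protein degradation in the nucleus. The call was lost without Veh-Context replicate 1 or HDACi-CFC replicate 1. Its edge lay 1324 bp from the TSS and that of the Zbtb7a peak 1904 bp, and both had the strong promoter state. At Zbtb7a, a zinc finger repressor, the peak went from 4.11, 6.92 and 8.01 to 35.6, 34.3 and 32.1 CPM (2.44 ± 0.41; edgeR adjusted p = 0.0046). At Hipk4, a protein kinase gene, it went from 3.81, 4.27 and 4.92 to 16.7, 15.6 and 16.4 CPM (1.90 ± 0.23). The HDACi-CFC libraries at these 2 peaks lay close together and several-fold above the baseline. Map1s, Fam222a and a second peak of Gse1 rose by 1.99, 1.85 and 1.83. Prkcsh rose by 2.10 ± 0.48, a call lost without HDACi-CFC replicate 1.

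Some genes carried many rises, ranked here by the number of called non-promoter peaks, so genes with many peaks can lead for that reason. Of all non-promoter peaks 7.36% rose and 8.86% fell. Bcor, a corepressor gene, had 19 of 31 non-promoter peaks called higher and none lower. The one that changed most held 0.0747, 0.147 and 0.221 CPM in Veh-Context and 1.38, 1.46 and 1.09 CPM in HDACi-CFC. A peak with so low a baseline passes the count filter only through other groups, so its gap is no further support. By the same count Dab2ip had 19 of 40, Gse1 19 of 33, Engase 18 of 35 and Dlgap2, a postsynaptic scaffold, 17 of 93. Bcor lies on the X chromosome with a median of 1 protein-coding gene within 500 kb of its peaks, where drops outnumbered rises among all peaks.

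The 8 named promoter drops lay in narrow peaks, of 772 to 1679 bp, and 7 of the 8 were annotated promoter-TSS. Lonp2, a protease of peroxisomes, held 12.6, 10.6 and 11.5 CPM in Veh-Context and 3.55, 4.89 and 4.12 CPM in HDACi-CFC. The change was -1.49 ± 0.17 (edgeR adjusted p = 1.2e-07). Nup214, a nuclear pore protein, went from 7.69, 9.13 and 7.06 to 2.68, 3.43 and 3.02 CPM (-1.37 ± 0.20). Coq7, an enzyme of ubiquinone synthesis, went from 8.73, 5.89 and 8.45 to 3.40, 3.02 and 2.77 CPM (-1.35 ± 0.21). The naming rule required groups that do not overlap here as well. Smarcad1, a chromatin remodeller, Smim10l1 and BC049715 fell by 1.38, 1.43 and 1.37. Hist1h4h fell by 1.51, though reads may be split among near-identical histone genes. Olfr535, an olfactory receptor gene, fell by 1.37 at a peak of the control state. All 8 calls held in the 19 alternative settings.

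These drops were present with the drug alone in most cases. For Lonp2 the drug in unshocked mice gave -1.04 and the shock on vehicle -0.31. For Nup214 the values were -1.27 and -0.25, and for Coq7 -0.91 and 0.14. Olfr535 was the reverse, at -0.44 with the drug and -0.93 with the shock. The named promoter rises showed another split: for Stx16 the shock gave 1.68 and the drug -0.64, for Mxi1 1.81 and -1.15, and for Sema6b 1.50 and 0.28.

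**Figure D3:**
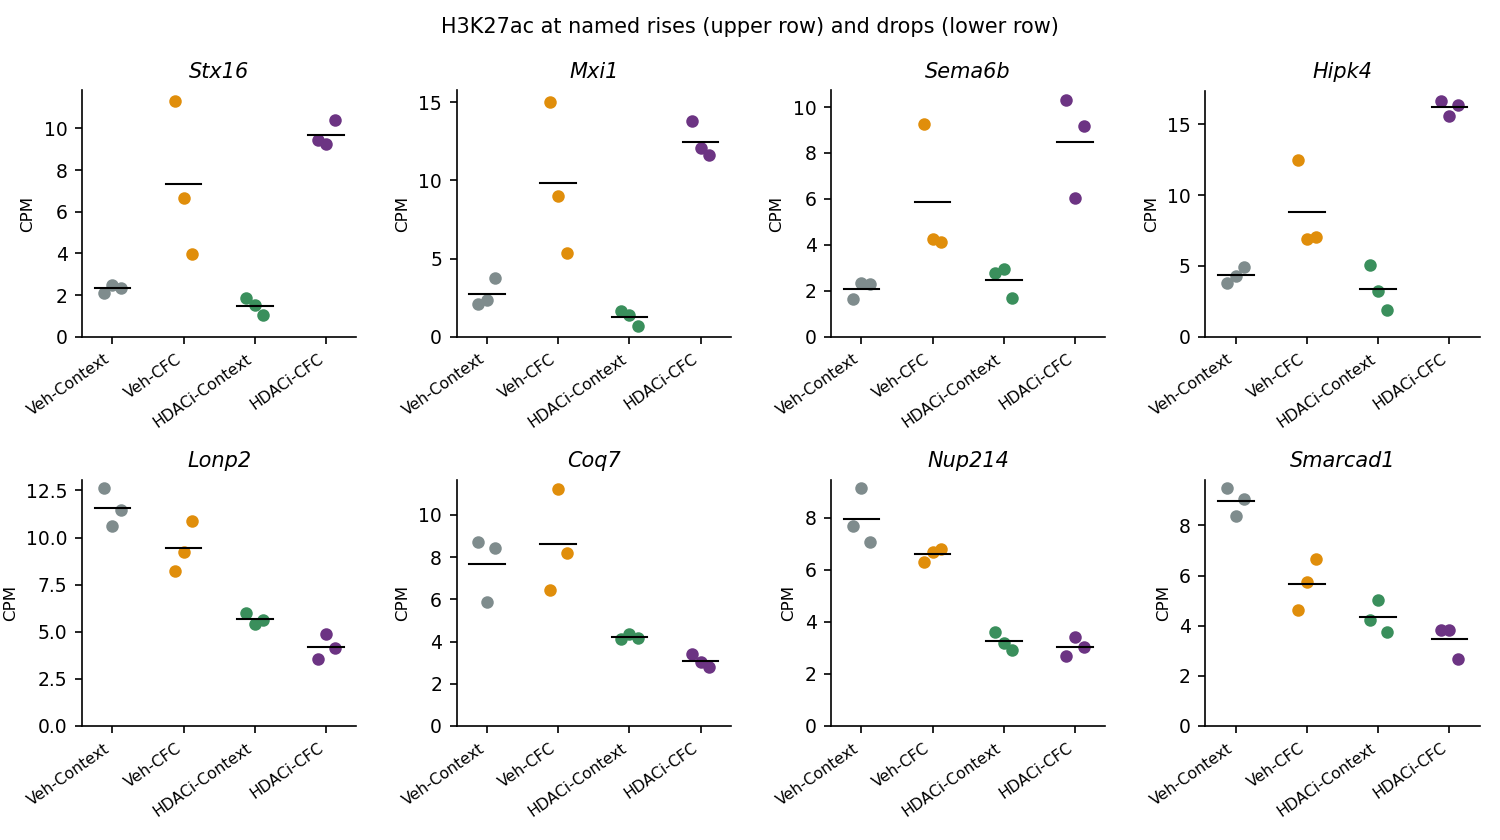
H3K27ac in CPM in each library of the 4 groups at 4 peaks that rose (upper row) and 4 that fell (lower row) in HDACi-CFC against Veh-Context, with the group mean as a line. At Stx16 the HDACi-CFC libraries lie between 9.26 and 10.4 CPM and the Veh-Context libraries between 2.09 and 2.50, while at Nup214 both drug groups lie below both vehicle groups.

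The 8 named non-promoter drops were all intergenic, with 0 to 21 protein-coding genes within 500 kb. The first of them, ranked by change among peaks with a mean count of at least 50, was a primed enhancer 104623 bp from Trhr, the receptor of thyrotropin-releasing hormone, which went from 8.96, 12.8 and 7.94 to 2.54, 3.95 and 3.19 CPM (-1.60 ± 0.21; edgeR adjusted p = 1.4e-06). Its shock and drug values, -0.70 and -0.60, were close to each other. Peaks named for Rps7, Olfm4, Olfr16, Arxes2, Smgc, Rps29 and Nmnat2 fell by 1.34 to 1.47. The one named for Olfr16 lies 1855 bp from the TSS of that gene, and the one named for Rps29 915618 bp. All 8 calls held in the 19 settings. Among the genes with the most non-promoter drops, Celf2, an RNA-binding splicing regulator, had 38 of 186 peaks lower and 3 higher. Dlg2, a postsynaptic scaffold, had 35 of 236 lower, Pard3 32 of 137, Cdk5rap2 31 of 66, Tafa2 31 of 90 and Tenm2, a teneurin adhesion protein, 30 of 116. No non-promoter peak of these last 5 genes was called higher. The median peak widths of the 6 genes ran from 1247 to 1539 bp. These genes were ranked by the number of called peaks, and genes with many peaks can lead for that reason. Their peaks had a median of 1 to 3 protein-coding genes within 500 kb. Of all non-promoter peaks with 0 to 5 such genes 16.1% fell and 2.42% rose, so the Dlg2 count is not above that share.

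Gene lists were read at 1 promoter peak per gene, the one with the most counts. Over all 14154 such genes 24% rose and 7.49% fell, with a median of 0.18. The share of rises depends on width: of all promoter peaks 31.4% rose at 2001 to 5000 bp and 50.6% at 5001 to 10000 bp. Median widths were 4721 bp for the late response genes below, 4293 bp for signalling and 4959 bp for channels. For axon guidance the median was 4300 bp and for glucocorticoid response genes 5025 bp. The part of width in the list counts was not tested. Immediate early genes had the highest share of rises among the 29 lists: 23 of 31 rose, 1 fell, and the median change was 0.63. Their summed level was 421.7 to 469.3 CPM in Veh-Context, 512.5 to 654.2 in Veh-CFC, 335.3 to 403.6 in HDACi-Context and 654.8 to 674.6 in HDACi-CFC. With the shock alone 9 rose and none fell, and with the drug alone 1 rose and 6 fell. Of the 23 rises, 13 held in all 19 alternative settings. The median width of these peaks was 3091 bp and the median number of genes within 500 kb was 20.

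Fos, the archetypal activity-induced transcription factor, held 3.28, 5.30 and 4.63 CPM in Veh-Context and 10.4, 8.63 and 11.0 CPM in HDACi-CFC. The change was 1.23 ± 0.18 (2.35-fold; edgeR adjusted p = 7.1e-06). Both single treatments gave like values, 0.58 ± 0.20 for the shock and 0.60 ± 0.19 for the drug, of which the drug value was called. Atf3, a stress-induced bZIP factor, went from 0.224, 0.442 and 0.735 to 3.69, 3.33 and 2.77 CPM (2.76 ± 0.41; edgeR adjusted p = 5.8e-06). The mean count of the Atf3 peak was only 15.1, and its Veh-Context libraries were all under 1 CPM, as were those of HDACi-Context (0.278, 0.290 and 0.408). It passed the count filter through the shocked groups, so the gap is no further support and the size of the change is uncertain. A shorter promoter peak of Fos, annotated to its intron, rose as well (1.32 ± 0.30).

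Among the Egr zinc finger factors, Egr1 went from 45.7, 47.0 and 52.0 to 77.4, 83.7 and 75.5 CPM in an intergenic peak of 13713 bp (0.71 ± 0.12; edgeR adjusted p = 3.4e-05). A peak over its exon rose by 1.46 ± 0.21. Egr2 and Egr3 rose by 1.40 ± 0.35 and 1.26 ± 0.25. Egr4 fell by 1.13 ± 0.33 in a peak of 527 bp, a call lost without Veh-Context replicate 3 or HDACi-CFC replicate 3.

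The growth arrest genes Gadd45b and Gadd45g, which act in DNA demethylation, rose by 1.34 ± 0.26 and 1.38 ± 0.19. Csrnp1, Dusp1, a phosphatase of MAP kinases, Btg2 and Jun rose by 0.82, 0.63, 0.57 and 0.45. Arc, an organiser of AMPA receptor traffic, rose by 0.90 ± 0.26 (edgeR adjusted p = 0.033, from 4.6e-10 to 0.111 over the alternatives). Npas4, a factor of inhibitory synapse formation, rose by 0.34 ± 0.12 (0.037, from 0.0101 to 0.140). Both calls were lost with library totals, with loess scaling, and when Veh-Context replicate 1 or any single HDACi-CFC library was left out, among others. A second peak of Arc rose by 1.15 ± 0.19 and one of Npas4 by 0.70 ± 0.22.

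For the Nr4a nuclear receptors the single treatments had opposite signs. Nr4a2 held 2.09, 3.24 and 3.97 CPM in Veh-Context, 10.1, 5.51 and 5.80 in Veh-CFC, 1.25, 0.985 and 0.748 in HDACi-Context and 10.1, 7.90 and 8.57 in HDACi-CFC. The drug alone lowered it and the shocked groups overlapped, so the joint change was 1.53 ± 0.22 beside 1.21 for the shock and -1.62 for the drug. Nr4a1 rose by 0.76 ± 0.19, beside 0.41 and -0.73, a call lost without Veh-Context replicate 1 (adjusted p = 0.0571 by edgeR). Per1, a clock gene that activity and glucocorticoids induce, held 50.5, 44.9 and 56.3 CPM in Veh-Context and 67.4, 69.3 and 64.9 CPM in HDACi-CFC. Its joint change was 0.40 ± 0.12, beside 0.64 for the shock and -0.99 for the drug. In 4 alternatives, loess scaling among them, that call was lost, with adjusted p up to 0.103. Bdnf, the neurotrophin gene with several promoters, had no call at its highest peak (-0.16 ± 0.12; edgeR adjusted p = 0.365). Loess scaling made that drop a call. Of 5 further promoter peaks of Bdnf, 2 rose, by 0.39 ± 0.12 and 0.47 ± 0.15.

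**Figure D4:**
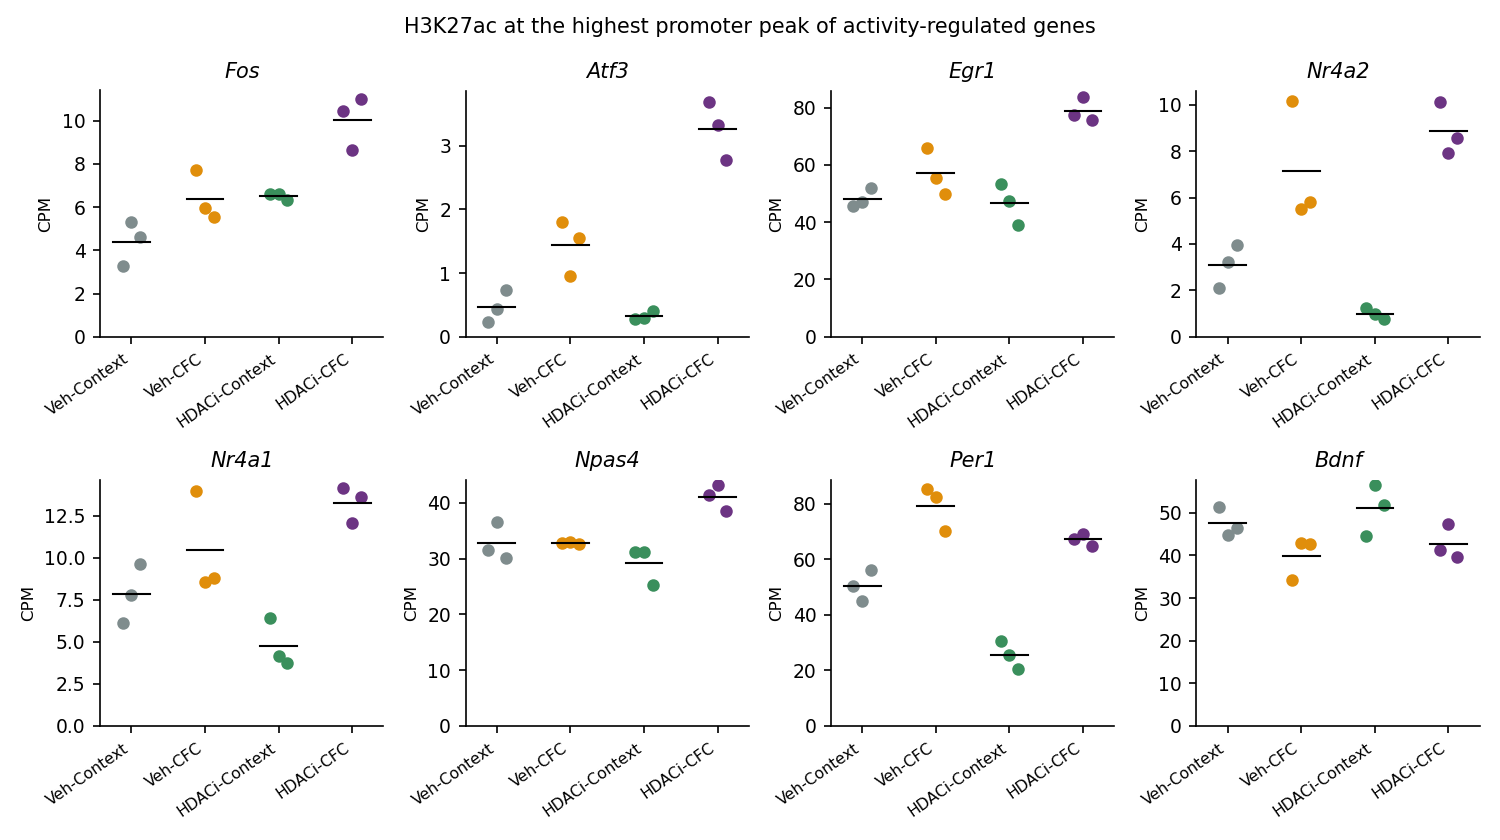
H3K27ac in CPM in each library of the 4 groups at the promoter peak with the most counts of 8 activity-regulated genes, with the group mean as a line. At Fos and Atf3 the HDACi-CFC libraries are the highest, at Per1 and Nr4a2 the HDACi-Context libraries are the lowest, and at Bdnf the groups overlap.

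Late response genes, which follow the immediate early wave, rose at 12 of 23 promoters and fell at 1, with a median of 0.41. Over all 356 peaks named for them 30 rose and 47 fell, with a median of -0.15, beside 9.52% and 8.62% of all peaks tested. Nptx2, a pentraxin that clusters AMPA receptors, Plk3 and Sorcs3 rose by 0.85, 0.97 and 0.78. Nptx1 rose by 1.08 ± 0.32 (edgeR adjusted p = 0.048), a call that 13 of the 19 alternatives ended.

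Of 59 genes of cAMP, calcium and MAP kinase signalling 30 rose and 3 fell, with a median of 0.39. Camk2b, a subunit of the calcium/calmodulin kinase of synaptic plasticity, went from 50.2, 56.4 and 58.8 to 130, 137 and 136 CPM (1.29 ± 0.12). The lowest HDACi-CFC library held more than 2 times the level of the highest Veh-Context library. Calm2, a calmodulin gene, rose by 0.70 ± 0.11, and Rasgrf1, Camkk2 and Prkaca by 1.06, 1.01 and 0.95. Calm3 rose by 1.40 ± 0.31, a call lost without Veh-Context replicate 1. The drops were at Crem, Atf1 and Pde1a (-0.49, -0.37 and -0.39), and each was lost in 3 or more alternatives.

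Voltage-gated channels rose at 28 of 47 promoters and fell at 2, with a median of 0.53. Kcnh5, a potassium channel, went from 1.72, 3.97 and 2.57 to 7.61, 5.72 and 5.80 CPM (1.32 ± 0.24). Cacnb1 and Cacnb3, auxiliary calcium channel subunits, rose by 1.30 and 1.15, and Scn8a, a sodium channel of the axon initial segment, by 0.81. Kcnip4 and Cacnb4 fell by 0.42 and 0.36, both lost in 5 alternatives.

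At the synapse, 16 of 37 genes of presynaptic release rose and none fell (median 0.33), among them Unc13a of vesicle priming (1.33 ± 0.22) and Syp (0.86 ± 0.12). Glutamate receptor genes rose at 11 of 26 (median 0.30), with Grid1 at 1.23 ± 0.19 and the kainate receptors Grik4 and Grik5 at 0.92 and 0.94. Postsynaptic scaffolds rose at 11 of 24 and fell at 1 (median 0.34). Baiap2, a scaffold that shapes spines, went from 100, 107 and 120 to 218, 250 and 235 CPM in a peak of 29378 bp (1.10 ± 0.12; edgeR adjusted p = 3.6e-07). Dlg1 fell by 0.46 ± 0.13, lost in 3 alternatives. GABA receptor genes had 4 rises and 1 drop of 14 with a median of 0.01, which was -0.05 with library totals and -0.07 with loess scaling. Gabbr1, a subunit of the GABA-B receptor, rose by 0.82 ± 0.14. Median peak widths were 5236 bp for presynaptic release, 4641.5 bp for glutamate receptors, 6804.5 bp for scaffolds and 5790 bp for GABA receptors. Of all promoter peaks of 5001 to 10000 bp 50.6% rose, so the counts of presynaptic release, scaffolds and GABA receptors are not above that share. The part of width in these counts was not tested.

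Axon guidance genes rose at 19 of 39 and none fell (median 0.39), with Unc5b, a netrin receptor, at 1.38 and the semaphorins Sema7a and Sema6a at 0.97 and 0.94. Extracellular matrix genes rose at 12 of 30 (median 0.45), with Mmp17, a membrane-bound protease, at 1.43 ± 0.24, Timp2 at 1.19 ± 0.28 and Bcan, a proteoglycan of perineuronal nets, at 1.09. Cell adhesion genes rose at 11 of 33 and fell at 2 (median 0.20, with counts of 9 and 4 with library totals), led by Nlgn2, a neuroligin of inhibitory synapses (1.32 ± 0.20). The median width of the adhesion promoter peaks was 5545 bp. Of all promoter peaks of 5001 to 10000 bp 50.6% rose, and the adhesion count is not above that share. The direction of the adhesion list turned when all peaks named for its genes were counted: 43 rose and 255 fell of 1220, with a median of -0.33. Drops also outnumbered rises for glutamate receptors (57 rose and 98 fell of 695, median -0.12). The same held for presynaptic release (50 and 66 of 642, median -0.11) and GABA receptors (23 and 60 of 322, median -0.24). Axon guidance had 107 rises and 107 drops of 897 peaks (median -0.13), and the extracellular matrix 39 and 39 of 465. Over all peaks tested 9.52% rose and 8.62% fell, and the presynaptic and matrix counts lie near those shares. Postsynaptic scaffolds, at 119 and 58 of 996, signalling, at 135 and 53 of 1040, and channels, at 121 and 60 of 1129, kept more rises than drops. The promoter peaks of the adhesion genes had a median of 1 protein-coding gene within 500 kb. For the immediate early genes the same count gave 92 rises and 24 drops of 372 peaks.

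**Figure D5:**
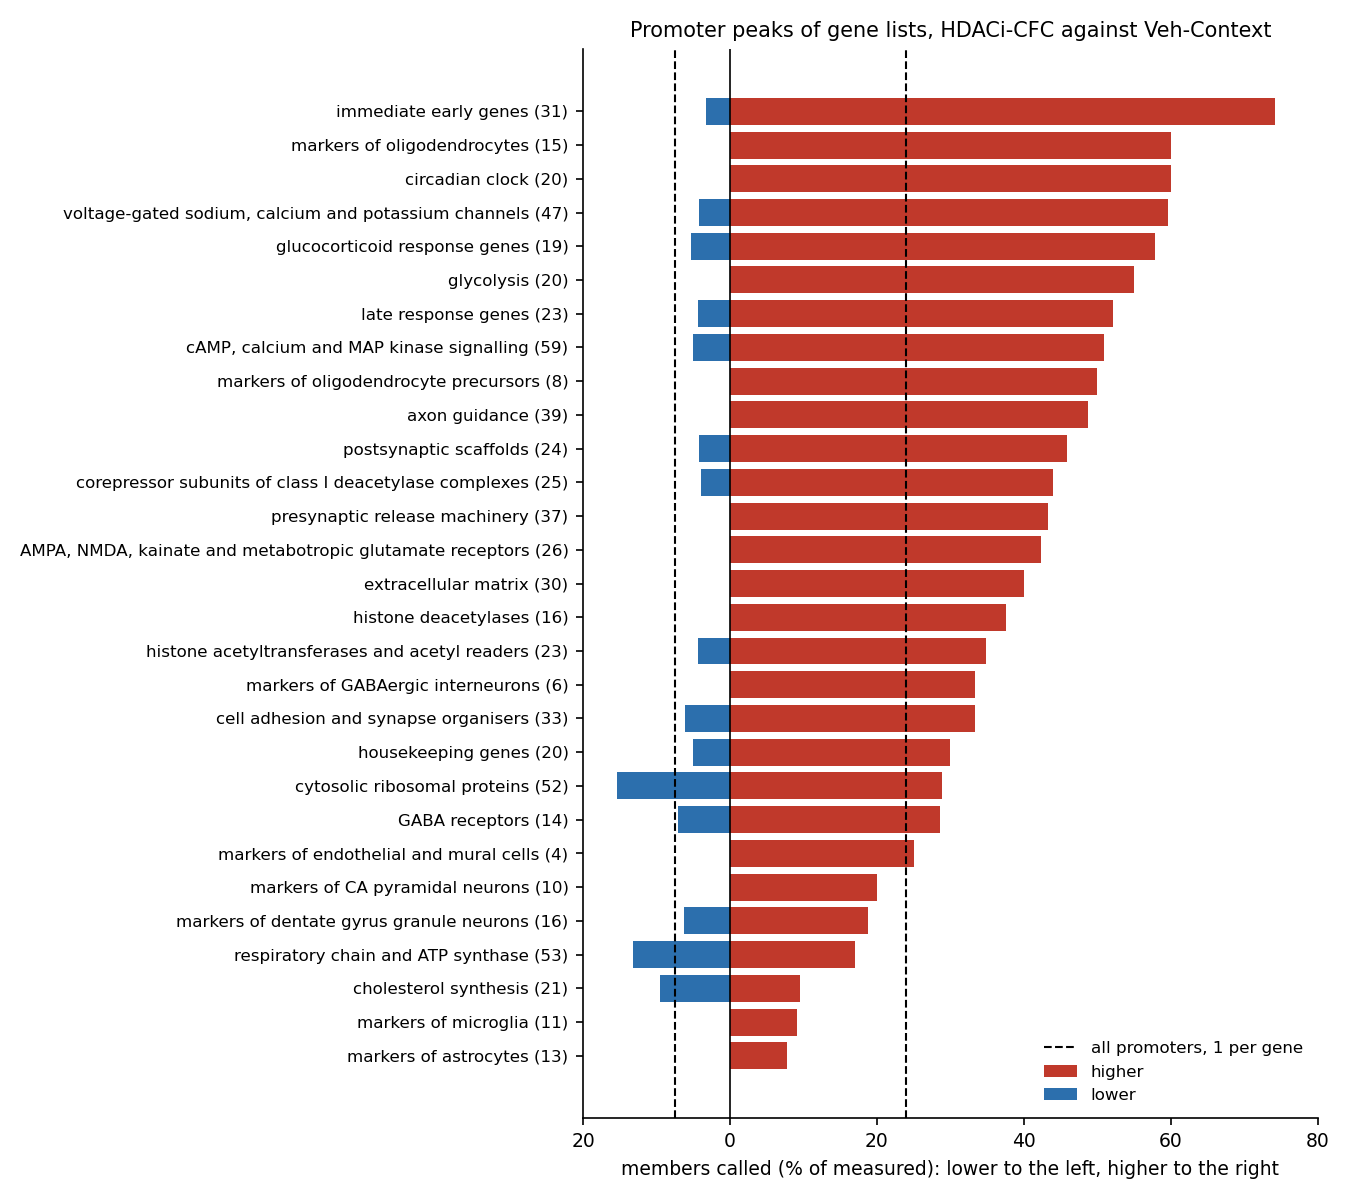
Percent of measured members called higher (red, to the right) or lower (blue, to the left) in HDACi-CFC than in Veh-Context at 1 promoter peak per gene, for 29 gene lists with the number of measured genes in brackets. Dashed lines give the same for all promoters, 24% and 7.49%, and immediate early genes lie at the top.

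At the promoters of the enzymes that the drug targets no change was called. Hdac1, Hdac2 and Hdac3, the class I deacetylases that CI-994 inhibits, had changes of 0.29 ± 0.14, 0.31 ± 0.20 and 0.25 ± 0.15 and were not called (edgeR adjusted p = 0.159, 0.296 and 0.248). Hdac3 held 10.3, 10.2 and 11.1 CPM in Veh-Context, 13.4, 17.1 and 16.0 in Veh-CFC, 6.19, 4.93 and 4.76 in HDACi-Context and 12.6, 13.0 and 12.0 in HDACi-CFC. The drug alone lowered it by 1.00 on the log2 scale and the shock alone raised it by 0.55, and the joint group stood above the baseline libraries without passing the test. Of the 16 deacetylase genes 6 rose, among them Hdac7 (0.99 ± 0.13) and Hdac11 (0.94), and none fell. Subunits of corepressor complexes rose at 11 of 25 and fell at 1. Mta1 of the NuRD complex went from 6.87, 7.95 and 10.5 to 28.6, 24.3 and 28.0 CPM (1.67 ± 0.25), and Rcor2 of the CoREST complex rose by 1.39 ± 0.25. Sap18 of the Sin3 complex fell by 1.12 ± 0.25 in a peak of 529 bp. Acetyltransferases and acetyl readers rose at 8 of 23 and fell at 1, with Kat2b, an acetyltransferase, at 1.14 ± 0.19. Brd2 rose by 1.62 ± 0.46 beside 1.91 for the shock and -2.21 for the drug, a call that 8 alternatives ended.

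Clock genes rose at 12 of 20 and none fell (median 0.47), with Csnk1e, a kinase of the period proteins, at 1.39 ± 0.30, Rorb at 1.00 and Arntl at 0.77. Dbp, a clock output factor, was not called (0.21 ± 0.13; edgeR adjusted p = 0.282) beside 0.57 for the shock and -1.38 for the drug. Glucocorticoid response genes rose at 11 of 19 and fell at 1 (median 0.41). Nfkbia, an inhibitor of NF-kB, rose by 1.03 ± 0.19 beside 0.23 for the shock and 0.13 for the drug. Both lists and that of the immediate early genes hold Per1.

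Metabolic genes went different ways. Glycolysis rose at 11 of 20 promoters and none fell (median 0.50), with Eno2, the neuronal enolase, at 0.88 ± 0.16, Hk1 at 0.83, Tpi1 at 0.80 and Gapdh at 0.68. Genes of the respiratory chain and ATP synthase rose at 9 and fell at 7 of 53 (median 0.13), which was 7 and 10 with library totals. Over all promoters, 1 per gene, 24% rose and 7.49% fell. Atp5d rose by 1.53 ± 0.29 in a peak of 5386 bp. Uqcrfs1, the Rieske protein of complex III, went from 6.79, 6.18 and 5.22 to 2.61, 1.98 and 3.02 CPM in a peak of 633 bp (-1.23 ± 0.22). Cholesterol synthesis had 2 rises and 2 drops of 21 (1 and 4 with library totals), with Hmgcs1, which makes the first dedicated precursor, at -0.88 ± 0.20.

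Ribosomal protein genes rose at 15 and fell at 8 of 52, with a median of 0.09. Over all promoters, 1 per gene, 24% rose and 7.49% fell, with a median of 0.18. Of the 8 that fell, Rps3, Rpl23 and Rpl32 fell by 1.28, 1.01 and 1.00 in peaks of 576 to 762 bp. Rpl10 was wider, at 2888 bp, and went from 21.8, 19.7 and 20.5 to 8.69, 10.8 and 8.91 CPM (-1.14 ± 0.14), beside -1.51 for the drug and -0.11 for the shock. Rpl6 and Rpl11 rose by 1.11 ± 0.16 and 0.79 ± 0.14 in peaks of 4263 and 4940 bp. Pseudogenes of ribosomal proteins share sequence with these genes, which makes their counts less certain. Among 20 housekeeping genes 6 rose and 1 fell (5 and 2 with library totals), which is near the shares of all promoters. Ywhaz rose by 0.73 ± 0.11 beside 0.51 for the drug and 0.13 for the shock. Actb, at 0.63, was lost in 1 alternative.

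Markers of granule neurons checked the labelled tissue. Prox1, the defining factor of these cells, held 158, 141 and 163 CPM in Veh-Context and 161, 218 and 205 CPM in HDACi-CFC. Those groups overlapped, and the call of 0.34 ± 0.11 was lost in 5 alternatives. All 16 markers were measured, 3 rose and 1 fell (3 and 2 with library totals), and the median change was 0.04, which turned to -0.03 with library totals and -0.15 with loess scaling. Over all 409 peaks of the markers 20 rose and 63 fell, beside 9.52% and 8.62% of all peaks tested. Dsp, a desmosomal protein, rose by 0.88 ± 0.20, and Tdo2, a tryptophan oxygenase, fell by 0.83 ± 0.16. In bulk samples fewer cells of a type and less of the mark per cell cannot be told apart.

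Among markers of cells outside the sort, those of oligodendrocytes and their precursors rose more often than the 24% of all promoters. Oligodendrocyte markers rose at 9 of 15 promoters and none fell (median 0.67; 7 and 1 with library totals), including Myrf (0.93) and Mag (1.02). Their summed level was 163.0 to 180.1 CPM in Veh-Context and 223.6 to 255.7 in HDACi-CFC, where the NeuN gate would remove most such cells. The defining gene Mog stood at 2.54, 3.09 and 3.75 CPM in the baseline and had a change of 0.23, which was not called. Of those 9 rises, 3 held in all 19 alternatives. Precursor markers rose at 4 of 8, with 29.5 to 33.9 and 45.4 to 51.7 CPM, and 1 of those 4 rises held in all 19 alternatives. Both lists hold Olig1, Olig2 and Sox10, and the rise of Olig2 counts in each, so they are not independent. Astrocyte markers rose at 1 of 13 (213.5 to 246.2 and 267.7 to 312.6 CPM), and microglial ones at 1 of 11 (40.7 to 47.1 and 48.1 to 49.0 CPM). Both lie below the share of all promoters. Other neurons are not removed by a NeuN gate. Of their markers, those of pyramidal neurons of the CA fields rose at 2 of 10 and those of interneurons at 2 of 6. The part of other cells in the results above was not tested.

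A RefSeq window of the same gene overlapped 7875 of 21468 promoter peaks with a gene name (36.7%), so what follows describes those only. The ETS letters CCGGAAG occurred in 19.1% of 979 windows that overlapped drops in part or whole, 11.2% of 5632 that overlapped peaks with no call and 5.70% of 1264 that overlapped rises, against 6.91% of all 32851 windows. Among peaks up to 2000 bp wide the shares were 22.2%, 12.1% and 5.37%. The half-site TGACG followed the same order, with 34.1%, 25.1% and 19.8%, against 17.8% of all windows. CCAAT occurred in 39.9%, 34.6% and 31.3%, against 33.8%, while the GC box GGGCGG occurred in 45.7%, 48.9% and 50.8%, against 32.7%. The E-box CACGTG occurred in 8.99%, 7.65% and 5.93%. Drops had a median GC content of 54.0% and rises of 59.2%. Of the peaks whose windows held 26.4% to 49.6% GC, 7.87% rose and 19.0% fell, and of those with 64.4% to 82.8% GC, 19.9% and 7.43%. The part of GC content in the calls was not tested.

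The joint change was also set against the sum of the single changes. The interaction, the joint change less the 2 single changes, was called at 50 of 144014 peaks (0.0347%), 49 of them higher and 1 lower than the sum (0.034% and 0.000694%). The single changes were called at 7.15% of peaks for the shock (6354 higher and 3946 lower, 4.41% and 2.74%) and 8.58% for the drug (3928 higher and 8429 lower, 2.73% and 5.85%). At promoters the shock gave 3039 rises and 101 drops (14.1% and 0.47%), the drug 197 and 4573 (0.917% and 21.3%). For Fos the interaction was 0.05, with a 95% interval from -0.48 to 0.58, an interval that holds both signs. For Lonp2 it was -0.15 (from -0.63 to 0.34) and for Stx16 1.04 (from 0.28 to 1.79), neither of which passed the adjustment. For Mxi1 it was 1.50 (from 0.53 to 2.46) and for Zbtb7a 1.52 (from 0.28 to 2.76), wide intervals that lie above 0 but did not pass it either. Over all promoter peaks the median joint change, 0.18, stood above the sum of the medians for the shock, 0.25, and the drug, -0.30. A small number of calls therefore does not show that the single changes add up. Against shocked mice on vehicle, HDACi-CFC differed at 1322 peaks (0.918%), and against unshocked mice on the drug at 54640 (37.9%).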

How the data were processed

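Chromatin immunoprecipitation of H3K27ac was followed by paired-end sequencing. The authors deposited a table of raw read counts per peak, 144154 peaks on mm10 by 12 H3K27ac libraries, with a named gene, a distance, an annotation and a chromatin state for each peak. Per the submitters' processing notes, the tools were HOMER 4.11, MACS2, Bowtie2 2.3.5, Trimmomatic 0.38, DESeq2 1.28.1, SAMtools 1.9 and DiffBind 2.16.2, in an order and with settings not given in the sources used here. Here edgeR 4.0.16 (R 4.3.3) removed 140 peaks with its filter at a minimum count of 10, scaled by TMM and fitted 1 term per group over all 12 libraries with robust dispersions (median biological coefficient of variation 0.131). DESeq2 1.42.0 served as an alternative, and the code was tested on simulated data. The comparison, its named genes and the gene lists were chosen with earlier results of these data known. Named peaks were the 8 with the largest rise and the 8 with the largest drop among called promoter peaks, likewise among other called peaks, 1 peak per gene, with a mean count of at least 50, groups that did not overlap and no symbol of a Gm, Rik or microRNA gene or on chromosome 18. The rule adds the 6 genes with the most called non-promoter peaks in each direction, the leading called member of each list in each direction, and 10 fixed genes. Genes outside that rule were picked from the lists after their values were seen. CPM carries counting error, which is larger at low counts. Input libraries were not used, and results for some named genes are not reported here. Library totals ran from 6639158 to 16734757.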

Additional observations from a re-analysis of the deposited data

Results flagged for a closer look

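At 3 promoters reported here the joint change differed from the sum of the single changes, with the interaction past the threshold of edgeR's quasi-likelihood test. The joint change shares its Veh-Context libraries with both single changes. For Nr4a2, an activity-induced nuclear receptor, the interaction was 1.95 ± 0.37 (SE; edgeR adjusted p = 0.0368). Its HDACi-Context libraries lay at 0.748 to 1.25 CPM and its HDACi-CFC libraries at 7.90 to 10.1 CPM. For Dbp, a clock output factor, it was 1.02 ± 0.19 (edgeR adjusted p = 0.0368). Dbp held 13.6, 12.1 and 10.8 CPM in HDACi-Context and 35.4, 37.3 and 37.0 CPM in HDACi-CFC, beside 30.2, 28.4 and 35.6 CPM in Veh-Context. For Rps10, a ribosomal protein, it was 0.999 ± 0.20 (edgeR adjusted p = 0.0408). Rps10 held 37.6, 39.4 and 37.3 CPM in HDACi-CFC, above all libraries of the other groups, the highest of which held 28.0 CPM.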

How the results depend on the processing

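The promoter result turned on how a promoter was defined. The difference in the mean promoter share of counts was 3.39 percentage points, 1.12 with a limit of 100 bp and -0.21 for peaks annotated promoter-TSS. Promoter rises and drops numbered 4691 and 1555, 1615 and 959 with 100 bp, and 827 and 1094 for promoter-TSS. DESeq2 called 10598 rises and 7275 drops, with 980 drops at promoters, and the 6 libraries alone gave 17788 and 14272. Library totals gave 11026 and 16701 and moved the median of all peaks from -0.02 to -0.09. When all peaks of a gene were counted, 16 of the 29 lists had more rises than drops, against 28 at promoters. With 1 library left out, rises ranged from 6889 to 15611, drops from 6337 to 14305, promoter rises from 2803 to 5142, promoter drops from 844 to 1728, the share difference from 3.16 to 3.70 and the lists from 26 to 28. The low counts came without Veh-Context replicate 1 (promoters 2803 and 844), and promoter drops were 921 without Veh-Context replicate 3, 979 without HDACi-CFC replicate 1 and 972 without HDACi-CFC replicate 3. Of 80 named peaks called, 54 were called in all 19 settings and 26 were lost in some. The cause was not tested. Veh-Context library 2, with 6639158 counts, was the shallowest and limits what low peaks can show.

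With the replicate number as a block, 13452 peaks rose and 12438 fell (promoters 4606 and 1534). Same-numbered libraries correlated from -0.28 to 0.35 in their deviations from the group means, so the numbers were not taken to pair the libraries.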
